A study of Drosophila melanogaster with 18 samples.

Results

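RNA was sequenced from whole Drosophila melanogaster embryos of mothers that expressed a short hairpin RNA named for Piwi (Piwi-MatKD_1) and compared with RNA from embryos of mothers that expressed one named for GFP (GFP-MatKD, the control), to ask which transcripts differ at 0 to 1.5 h of age when maternal Piwi is depleted. Each group had 3 libraries. The maternal genotype was 37483/MAT-Gal4 in Piwi-MatKD_1 and 41550/MAT-Gal4 in GFP-MatKD, so both groups carry the MAT-Gal4 driver, and the fathers of both were w1118. The labels' growth protocol instead puts the hairpin in the females and the driver in the males, and how the parents were crossed is uncertain. Cages held about 100 females and 20 males at 25 °C for at least 2 days and RNA was taken up in TRIzol, per the labels. The library kit is given as a stranded mRNA kit while the series speaks of total RNA-seq, so the selection of the RNA is uncertain. Each group stands for 1 hairpin genotype under a driver active in the maternal germline. The features compared were the genes and repeat elements with a normalised read value of at least 1 in at least 3 of the 6 libraries. These were 10486 of the 17994 rows of the table, made up of 10283 genes and 203 repeat elements. Repeat elements are counted by row, and some enter as separate rows for their parts. The terminal repeat Invader5_LTR lay just inside this limit, with 1.26, 1.70 and 1.45 as its values of at least 1, and the gene rsh just outside it, with 1.26 and 4.35 alone.

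Piwi is an Argonaute protein that enters the nucleus of germ cells carrying a piRNA, a small RNA that matches transposable elements. There it directs repressive histone methylation to the elements' copies as they are transcribed. Fly telomeres are built from retrotransposons, HeT-A, TART and TAHRE, which copy themselves onto chromosome ends and are known targets of the germline piRNA pathway. The early embryo is a syncytium that lives largely on RNA laid down by the mother, so RNA in it mostly reflects the maternal germline.

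Sequencing depth, in M (1000000 reads) and in order of replicate number, was 45.03, 16.51 and 32.95 for the control and 61.20, 20.22 and 38.79 for Piwi-MatKD_1. Piwi-MatKD_1 replicate 2 stood apart from the others. The sum of 16 late embryo muscle markers was 2099 normalised reads in it, 167 and 50.2 in Piwi-MatKD_1 replicates 1 and 3, and 47.5 to 102 in GFP-MatKD. The myosin light chain gene Mlc1, the troponin genes TpnC73F and TpnC47D and the muscle gene Mp20 were at 0 in the other 5 libraries. The muscle actin gene Act57B held 643 normalised reads in it against at most 14.2 in the other 5, and the sum of 88 ribosomal protein genes was 1783867 against 973931 to 1311472. The median SD over features on the log2 scale was 0.148 in GFP-MatKD and 0.285 in Piwi-MatKD_1. Spearman's rho between libraries of a group, across features, was 0.991 to 0.994 and 0.972 to 0.989 in the same order. For pairs across the groups it was 0.978 to 0.993, reaching above all pairs within Piwi-MatKD_1. Sums of 10 neuron markers (10120 to 10978 in controls, 8886 to 11488 in the knockdown) and of 43 early zygotic genes (26617 to 39419 and 27030 to 34800) overlapped between the groups. Of 20 eggshell and follicle cell markers, 8 were at 0 in all 6 libraries and none reached 10 normalised reads in any, with sums of 15.7 to 21.7 and 15.1 to 18.6. Of 18 male germline markers, 12 were at 0 in all 6. The sum of the 18 was 1947 to 2374 in GFP-MatKD and 1611 to 1888 in Piwi-MatKD_1, nearly all of it from bam, which acts in germ cells of both sexes. None of these sums could pass an exact two-sided permutation test of 3 against 3 libraries, whose smallest p is 0.1.

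**Figure D1:**
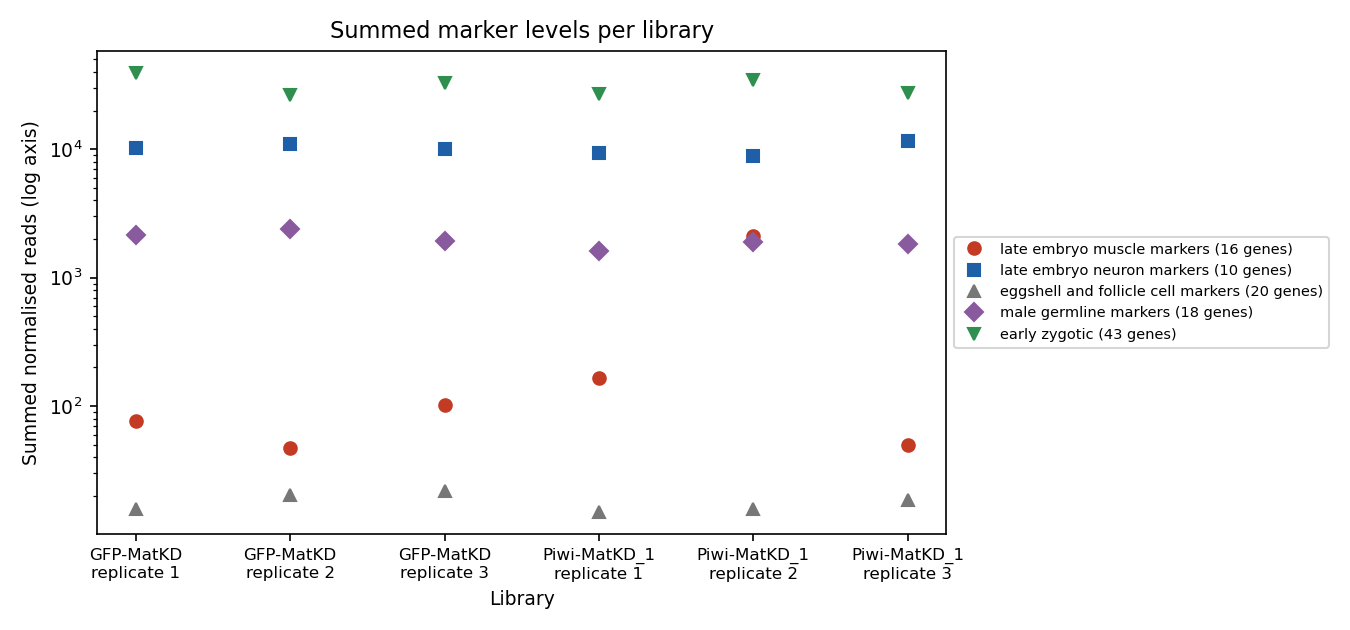
Summed normalised reads of 5 marker lists (vertical, log axis) in each of the 6 libraries (horizontal), with 1 symbol per list. The muscle sum of Piwi-MatKD_1 replicate 2, at 2099, lies above the 47.5 to 167 of the other 5 libraries, while the groups overlap or nearly meet in the other lists.

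The hairpin's target was checked first. piwi (FBgn0004872, chromosome arm 2L, 10982205 to 10987420) held 7963, 9360 and 8921 normalised reads in GFP-MatKD and 256, 410 and 398 in Piwi-MatKD_1. The lowest control library thus lay far above the highest knockdown library, and the knockdown mean of 355 ± 85.7 (SD, n = 3) was 4.06% of the control mean of 8748 ± 715. The log2 fold change was -4.65 (SE 0.19, adjusted p = 0.000562 in limma, Benjamini-Hochberg over all 10486 features). SCAR, which overlaps piwi in the annotation and encodes an activator of actin branching, had a log2 fold change of 0.04 and did not pass. In RNA of whole embryos, fewer cells of a type and less RNA per cell cannot be told apart.

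Of the 10486 features, 28 passed an adjusted p of 0.05 (0.267%), and 19 of them were higher in Piwi-MatKD_1 (0.181%) and 9 lower (0.0858%). The 19 that rose were 10 genes and 9 repeat elements. The 9 that fell were all genes. Repeat elements made up 32.1% of the features that passed and 1.94% of those tested. In all 28 the 3 values of one group lay on one side of the 3 of the other. For CG10750 and CR45548, each at 0 in all libraries of one group, the limit on low values made this certain. The other features were chosen by a test on these same values, so the lack of overlap adds no support for them either. Over all features tested, 502 (4.79%) had all Piwi-MatKD_1 values above and 544 (5.19%) had all below those of GFP-MatKD, and 476 (4.54%) had an unadjusted p under 0.05, with 220 higher (2.1%) and 256 lower (2.44%). When features were divided into 3 classes of mean level, those that rose were 2 of low, 15 of middle and 2 of high level, and those that fell were 3, 2 and 4. Of the 10 genes that rose, 5 lie on chromosome arm 2R, which holds 20.6% of the genes tested with a position. Of the 9 that fell, 6 lie on 3R, which holds 23.9%.

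Leaving out 1 library changed the count. It was 9 without GFP-MatKD replicate 1, 10 without replicate 2 and 4 without replicate 3, and 4 without Piwi-MatKD_1 replicate 1, 23 without replicate 2 and 31 without replicate 3. 4 features passed in each of these 6 fits, piwi, Ctl2, l(2)41Ab and the telomeric element HETA. Without Piwi-MatKD_1 replicate 2, the library with muscle RNA, 19 of the 28 still passed. The 9 that did not were CG17068, prom, Copia_I-int, BEL_I-int, CR43361, disp, Tollo, Pde6 and CR31054, and their adjusted p without that library ran from 0.0543 (Tollo) to 0.102 (CR31054). Their log2 fold changes without it were 5.38 for CG17068, 3.64 for prom, 3.03 for Copia_I-int, 1.42 for BEL_I-int and 1.54 for CR43361. For disp, Tollo, Pde6 and CR31054 they were -0.80, -1.16, -2.53 and -2.71. With all 6 libraries the log2 fold changes of the 9, in the same order, were 5.58, 3.80, 2.94, 1.39, 1.51, -0.79, -1.21, -2.40 and -2.70.

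**Figure D2:**
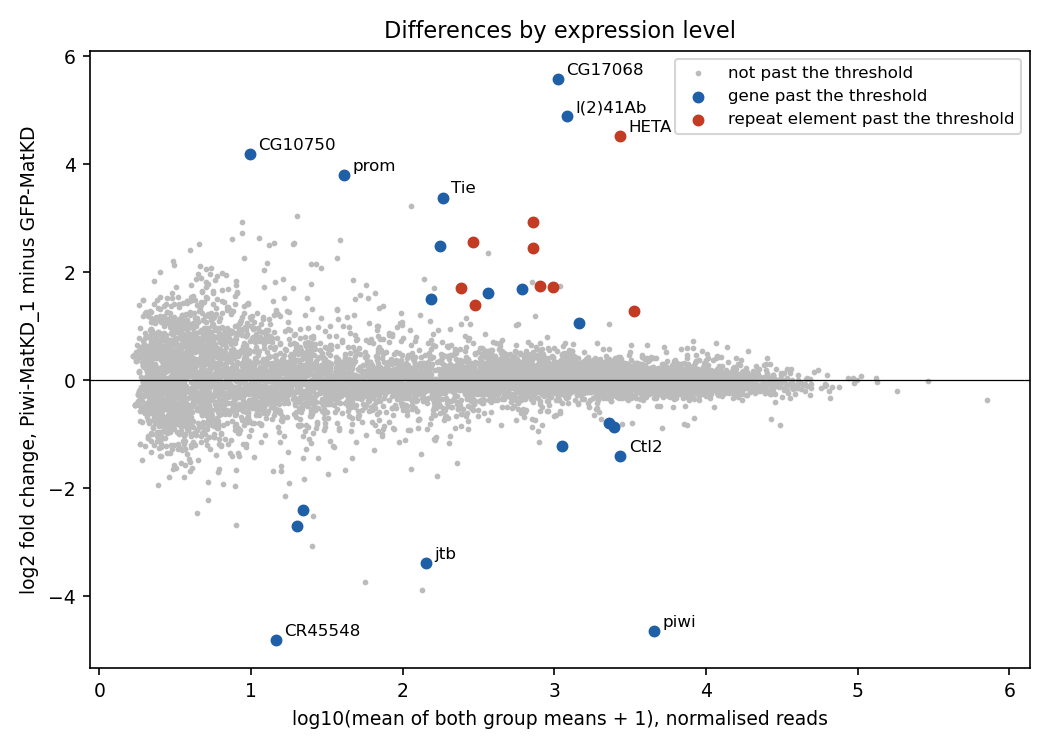
Log2 fold change of Piwi-MatKD_1 over GFP-MatKD (vertical) against the log10 of the mean normalised level plus 1 (horizontal) for all 10486 features, with genes past the threshold in blue and repeat elements past it in red. The 9 repeat elements all lie above 0, and piwi, at a log2 fold change of -4.65, lies apart from other features of its level.

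Of the 4 telomeric retrotransposon rows tested, HETA and TART rose and the other 2 did not pass. HETA, the element that makes up most of the telomeric arrays, held 187, 193 and 313 normalised reads in GFP-MatKD and 5979, 3997 and 5713 in Piwi-MatKD_1. Its mean of 5230 ± 1076 (SD, n = 3) was 22.6 times the control mean of 231 ± 71.3, and the log2 fold change was 4.51 (SE 0.24, adjusted p = 0.00188 in limma). TART, which unlike HeT-A encodes its own reverse transcriptase, held 263, 153 and 268 normalised reads in GFP-MatKD and 1358, 1053 and 1233 in Piwi-MatKD_1, with a log2 fold change of 2.45 (SE 0.24, adjusted p = 0.0145). The groups were far apart for both. TAHRE held 77.9, 107 and 183 normalised reads in GFP-MatKD and 625, 449 and 735 in Piwi-MatKD_1, but its log2 fold change of 2.35 did not pass (SE 0.34, adjusted p = 0.0731), and neither did that of 0.93 for TART_B1 (adjusted p = 0.924). The 4 telomeric elements together took 0.00178% to 0.00290% of the reads in GFP-MatKD and 0.0191% to 0.0296% in Piwi-MatKD_1, with the lowest share of the latter in replicate 2. The groups did not overlap (exact two-sided permutation p = 0.1, the smallest that 3 against 3 allows). No member of a list of 14 genes for the telomere cap, the protein complex on chromosome ends, passed the test (median log2 fold change 0.01). Among them woc held 16944 ± 1978 normalised reads in GFP-MatKD and 17528 ± 2788 in Piwi-MatKD_1, and HipHop 3515 ± 54.9 and 4182 ± 464.

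Elements with long terminal repeats (LTR), which like retroviruses copy themselves through a DNA made in the cytoplasm, gave the other 7 repeat rows that rose, out of 128 tested. Copia_I-int, the internal part of copia, held 253, 100 and 174 normalised reads in GFP-MatKD and 1455, 1111 and 1240 in Piwi-MatKD_1 (log2 fold change 2.94, SE 0.32, limma adjusted p = 0.0224). Gypsy2_I-int held 69.7, 84.8 and 92.9 and then 524, 365 and 598 (log2 fold change 2.55, SE 0.23, adjusted p = 0.0108). Both differed by more than the range within either group. The terminal repeat Gypsy12_LTR held 380, 341 and 375 normalised reads in GFP-MatKD and 1321, 1053 and 1341 in Piwi-MatKD_1 (log2 fold change 1.75, adjusted p = 0.00639). DM412, the element 412, held 1758, 2047 and 1998 in GFP-MatKD and 5088, 4003 and 5096 in Piwi-MatKD_1 (log2 fold change 1.28, adjusted p = 0.0145). For both of these the control values lay close together, and Piwi-MatKD_1 replicate 2 was the lowest of its group. Rows related to them by name did not pass. Gypsy12_I-int had a log2 fold change of 1.06 (limma adjusted p = 0.654). DM412B_LTR had one of 0.51 (adjusted p = 0.997), and its groups overlapped. The internal parts DIVER_I-int, Chimpo_I-int and BEL_I-int also rose, with log2 fold changes of 1.73, 1.71 and 1.39 and limma adjusted p of 0.0463, 0.0178 and 0.0414. Diver and BEL belong to the Pao family, in which 2 of 16 rows passed, with a median log2 fold change of 0.92. In it 8 of 16 rows had all Piwi-MatKD_1 values above all GFP-MatKD values. Internal and terminal parts of 1 element are counted apart, so a count of rows is not a count of elements. In the Gypsy family 4 of 103 passed (median 0.21), and in the Copia family 1 of 9 (median 0.48). Over all features tested, 0.267% passed and 4.79% had all Piwi-MatKD_1 values above, with a median of 0.01.

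Over all 203 repeat elements tested, 9 passed as higher and none as lower, against 5 with an unadjusted p under 0.05 that were lower and 38 that were higher. edgeR on the reads recovered from the table called 8 repeat elements and DESeq2 19. The median log2 fold change was 0.24 for repeat elements and 0.01 for genes, and 43 repeat elements (21.2%) had all Piwi-MatKD_1 values above all GFP-MatKD values and 11 (5.42%) had all below. None of 27 DNA transposons passed the test, with 2 at an unadjusted p under 0.05 and a median of 0.15. Of 37 LINE elements, which copy themselves directly into the chromosome, the telomeric HETA and TART alone passed. Among 54 LTR elements with both an internal and a terminal row, the internal part had the larger log2 fold change in 27, and 5 internal and 1 terminal rows passed. The median level in GFP-MatKD was 82.0 normalised reads for internal and 13.4 for terminal rows, which also differ in length. Gypsy2 differed between its parts, with a terminal log2 fold change of -0.77 that did not pass beside the internal 2.55. ROO_I-int, the internal part of the Pao element roo, held 1188, 1483 and 1289 normalised reads in GFP-MatKD and 5925, 2364 and 1439 in Piwi-MatKD_1, where replicate 1 is far above replicate 3, and it did not pass (adjusted p = 0.997). R1_DM and R2_DM, which insert into ribosomal RNA genes, had log2 fold changes of -0.70 and -0.82 that did not pass. Beside them, ribosomal RNA genes took 0.252% to 0.535% of the reads in GFP-MatKD and 0.182% to 0.245% in Piwi-MatKD_1. Whether that share plays a part was not tested.

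**Figure D3:**
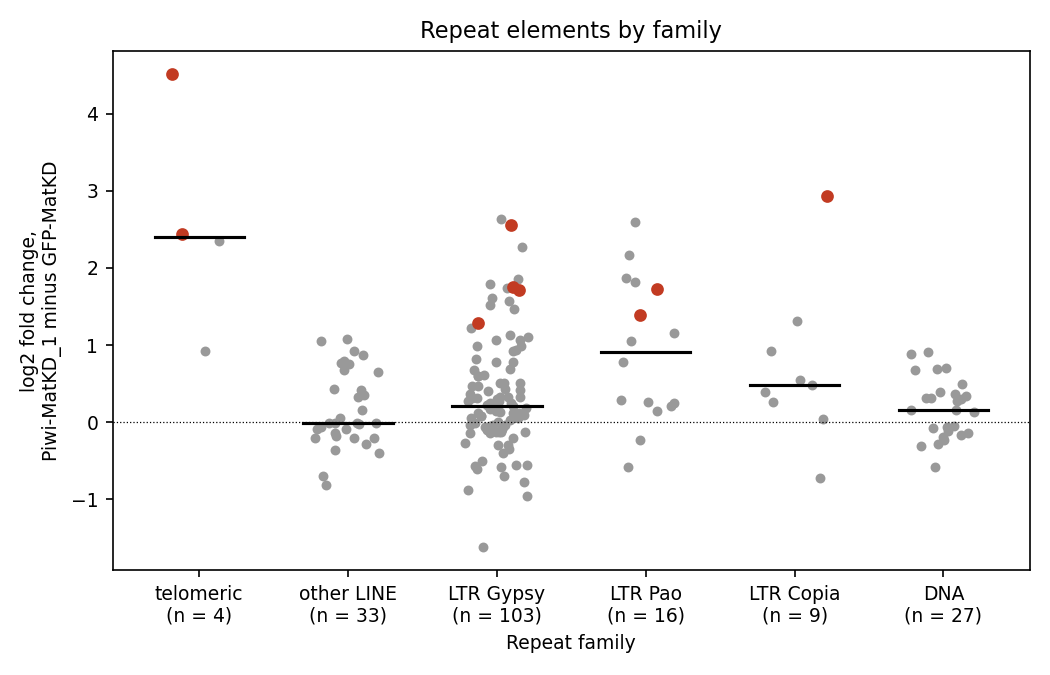
Log2 fold change of Piwi-MatKD_1 over GFP-MatKD (vertical) for the repeat rows tested, by family (horizontal). Each point is 1 row, red where it passed the threshold, and bars are medians. The internal and terminal parts of an LTR element are separate rows. Telomeric elements have a median of 2.40 and Pao elements of 0.92. The medians are 0.48 for Copia, 0.21 for Gypsy and 0.15 for DNA elements, and other LINE elements centre near 0.

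10 genes rose. CG17068 (chromosome X, 20248309 to 20251093) held 90.5, 15.3 and 47.7 normalised reads in GFP-MatKD and 1964, 2652 and 1526 in Piwi-MatKD_1, a log2 fold change of 5.58 (SE 0.59, limma adjusted p = 0.0205). l(2)41Ab, which lies in the pericentric heterochromatin of 2R (1349392 to 1443935), held 69.1, 59.4 and 107 and then 2522, 1536 and 3037, a log2 fold change of 4.89 (SE 0.31, adjusted p = 0.00289). The control values of both genes were low and uneven, and every Piwi-MatKD_1 library lay far above them. CG10750 (2L, 19300255 to 19301600) had no read in any GFP-MatKD library and 23.6, 15.9 and 13.6 normalised reads in Piwi-MatKD_1. Set against a floor of 3 reads over the group, it was at least 19.7-fold higher. It met the limit on low values through the Piwi-MatKD_1 libraries alone, so its groups had to differ and its test is not given as support.

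Among the other genes that rose, Tie, a receptor tyrosine kinase, held 24.5, 35.6 and 33.0 normalised reads in GFP-MatKD and 393, 374 and 242 in Piwi-MatKD_1 (log2 fold change 3.38, SE 0.26, limma adjusted p = 0.00654). prom, which encodes the membrane glycoprotein prominin, held 2.51, 3.39 and 8.68 and then 80.5, 91.3 and 53 (log2 fold change 3.80, SE 0.46, adjusted p = 0.0365). The groups did not overlap for either gene, and prom was near its detection limit in the controls. Jheh3, a juvenile hormone epoxide hydrolase that breaks down a developmental hormone of insects, held 282, 299 and 276 normalised reads in GFP-MatKD and 852, 1089 and 846 in Piwi-MatKD_1 (log2 fold change 1.69, SE 0.14, adjusted p = 0.00732). The other members of its family, Jheh1 and Jheh2, had log2 fold changes of -0.07 and 0.43 and did not pass (adjusted p = 0.997 and 0.400). CG30428 rose from 51.1 ± 12 to 298 ± 101 normalised reads (log2 fold change 2.49, adjusted p = 0.0383), and CG9380, which overlaps it, had a log2 fold change of 1.2 that did not pass (adjusted p = 0.356). Syt4, a synaptotagmin of vesicle release, rose from 176 ± 16.3 to 551 ± 139 (log2 fold change 1.61, adjusted p = 0.0418), and Tina-1 from 942 ± 13.0 to 1961 ± 152 (log2 fold change 1.05, adjusted p = 0.0108). The pseudogene CR43361 on chromosome 4, which overlaps the synaptic gene unc-13, rose from 79.2 ± 7.71 to 227 ± 14.1 normalised reads (log2 fold change 1.51, adjusted p = 0.0245), while unc-13 had a log2 fold change of -0.34 and did not pass. CG17068, prom, Jheh3 and Syt4 were highest in Piwi-MatKD_1 replicate 2, the library with muscle RNA. Without it the log2 fold changes of Jheh3 and Syt4 were 1.57 and 1.42. Whether reads were counted by strand is not given in the sources used here, so values of overlapping genes are uncertain.

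8 genes other than piwi fell. Ctl2 (3R, 29123370 to 29128247), which encodes a choline transporter-like protein, held 3963, 4044 and 3865 normalised reads in GFP-MatKD and 1455, 1583 and 1468 in Piwi-MatKD_1. Values within each group were nearly equal, and the knockdown mean was 38.0% of the control mean (log2 fold change -1.40, SE 0.08, limma adjusted p = 0.00210). No other gene of a list of 11 tested for choline transport and phospholipid synthesis passed. Among them sws, a phospholipase that acts on membrane lipids, had a log2 fold change of -0.16, and Pis, the phosphatidylinositol synthase, one of 0.18. jtb held 241, 273 and 266 normalised reads in GFP-MatKD and 23.1, 17.4 and 33.7 in Piwi-MatKD_1 (log2 fold change -3.39, SE 0.27, adjusted p = 0.00668). foxo, a transcription factor that insulin signalling holds back, held 3145, 3282 and 3190 and then 1613, 1815 and 1880 (log2 fold change -0.86, SE 0.09, adjusted p = 0.0205). Both genes were lower in every Piwi-MatKD_1 library than in any control.

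Tollo, a receptor of the Toll family that takes part in shaping the embryo, fell from 1574 ± 222 to 677 ± 52.8 normalised reads (log2 fold change -1.21, limma adjusted p = 0.0220). disp, which encodes Dispatched, the protein that releases Hedgehog from the cells that make it, fell from 2925 ± 140 to 1692 ± 135 (log2 fold change -0.79, adjusted p = 0.0374). CG34287, which overlaps disp, had a log2 fold change of -0.94 that did not pass. The phosphodiesterase gene Pde6 fell from 35.8 ± 3.16 to 6.07 ± 1.56 (log2 fold change -2.40, adjusted p = 0.0462). The pseudogenes CR31054 and CR45548 overlap each other on 3R (27960768 to 27961476 and 27961443 to 27961821), so their reads are not independent. CR31054 held 30.2, 39.0 and 32.1 normalised reads in GFP-MatKD and 6.22, 4.35 and 2.87 in Piwi-MatKD_1 (adjusted p = 0.0462). CR45548 held 23.9, 30.5 and 26.9 and then no read in any Piwi-MatKD_1 library, which against a floor of 3 reads over the group is at least 39.2-fold lower. It met the limit on low values through the GFP-MatKD libraries alone, so its test is not given as support either.

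**Figure D4:**
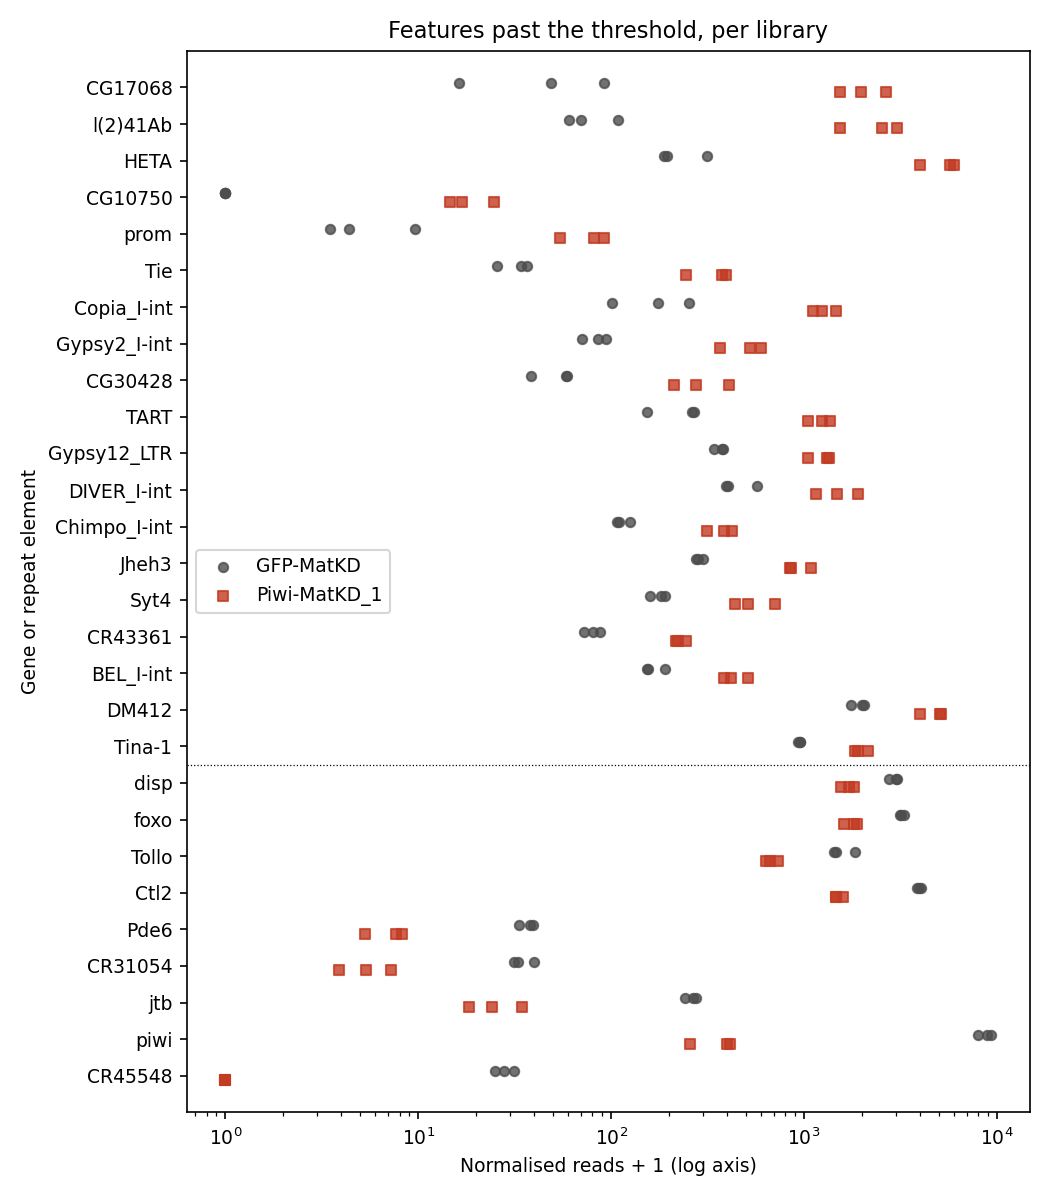
Normalised reads plus 1 (horizontal, log axis) in each GFP-MatKD (grey circles) and Piwi-MatKD_1 (red squares) library for the 28 features past the threshold (vertical), ordered by log2 fold change with a dotted line between those that rose and those that fell. The groups do not overlap in any of them, and CG10750 and CR45548 lie at 0 reads in all libraries of one group.

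The genes around Piwi were described by lists. Across 20 lists, 281 genes were tested and 3 passed, which were piwi, Ctl2 and l(2)41Ab, beside 28 of 10486 features (0.267%) in all. The lists were written with earlier results of these data known, and piwi and Ctl2 were named in advance. The count of 3 is therefore not a result about the lists. In the list for nuclear piRNA silencing, which holds the partners that act with Piwi on chromatin, piwi alone of 19 fell (median log2 fold change of the list -0.06). The nucleosome remodeller Mi-2 had a log2 fold change of -0.09. None of 14 genes for piRNA cluster transcription and export passed (median -0.08), where cuff, which protects cluster transcripts, had a log2 fold change of 0.08 and moon, a transcription factor of piRNA clusters, one of -0.35. None of 19 genes of the nuage, the cytoplasmic site where piRNAs are amplified, passed either (median -0.08). Within it the Argonaute gene AGO3 held 7019 ± 884 normalised reads in GFP-MatKD and 5145 ± 1911 in Piwi-MatKD_1, a log2 fold change of -0.50, and tud, a scaffold of nuage and germ plasm, one of -0.25. None of 9 genes of phased piRNA biogenesis passed (median -0.06), and none of 10 of the short interfering and micro RNA machinery (median -0.09), where the Argonaute AGO1 had a log2 fold change of -0.06 and the Dicer gene Dcr-2 one of -0.26. The median of all features tested was 0.01, and edgeR on the recovered reads also called 3 list members.

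Lists for the germ plasm and the early embryo gave no gene past the threshold. Of 23 germ plasm and primordial germ cell genes the median log2 fold change was -0.02, and CycB, a mitotic cyclin whose RNA is held at the pole of the egg, had one of 0.04. Of 43 early zygotic genes the median was -0.23, and it ran from -0.54 without GFP-MatKD replicate 2 to -0.01 without GFP-MatKD replicate 1. slam, needed for the first cell membranes, held 14945, 8419 and 10488 normalised reads in GFP-MatKD and 8029, 11559 and 8275 in Piwi-MatKD_1, so the groups overlapped. opa, a pair-rule transcription factor, had a log2 fold change of 0.95 and the protease gene tld one of -0.84. The medians were 0.00 for 20 genes of maternal RNA repression and clearance, -0.05 for 12 maternal activators of the zygotic genome, 0.02 for 23 genes of the syncytial cell cycle, -0.02 for 19 genes of the DNA damage response and -0.01 for 15 heat shock genes. Among these were smg (log2 fold change 0.01), which silences maternal RNA, the coactivator gene nej (-0.09) and the chaperone gene Hsp83 (-0.03). Of 20 antimicrobial and immune genes 5 were tested and none passed (median -0.12). Of 26 genes in pericentric heterochromatin, l(2)41Ab alone passed, and the median was -0.13, but it ran from -0.39 without Piwi-MatKD_1 replicate 3 to 0.06 without replicate 2. Among the marker lists none of 6 tested muscle, 8 neuron, 6 eggshell and 2 male germline genes passed. The medians were 1.05, -0.04, -0.20 and 0.25 in that order. Without Piwi-MatKD_1 replicate 2, the library with the high muscle sum, the muscle median was 0.29, and without replicate 1 or 3 it was 1.81 or 1.82.

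The same groups were also profiled for small RNA of 20 to 30 nt, in libraries of 2.29 to 3.18 M expected counts, giving a readout at the genes that the RNA did not use. In edgeR 163 of 2169 genes tested passed (7.51%, with 1.84% higher and 5.67% lower in Piwi-MatKD_1). Of the 19 genes whose RNA differed, 6 had enough small RNA to be tested and 4 passed. Small RNA at repeat elements was not analysed here. At piwi the control libraries held 8.02, 12.6 and 7.36 counts per 1000000 (CPM) of small RNA and the knockdown libraries 380, 508 and 155 CPM, so small RNA rose (log2 fold change 5.21, SE 0.42, edgeR adjusted p = 0.000108) where the RNA fell. The counts per gene do not tell product of the piwi hairpin itself from other small RNA at piwi. At Jheh3 small RNA fell from 23.7, 27.1 and 22.8 CPM to 8.94, 3.98 and 3.74 CPM (log2 fold change -2.15, SE 0.39, adjusted p = 0.0103). At CG30428 it fell from 60.3, 88.4 and 58.9 CPM to 20.7, 23.2 and 19.1 CPM (log2 fold change -1.72, SE 0.32, adjusted p = 0.0120). Both genes thus had higher RNA and lower small RNA in Piwi-MatKD_1. Without Piwi-MatKD_1 replicate 3 of the small RNA libraries, piwi was the 1 gene of these that passed. At prom small RNA rose from 0.651 ± 0.642 to 5.97 ± 3.01 CPM (log2 fold change 3.09, adjusted p = 0.0315) as its RNA did, on few reads. l(2)41Ab had small RNA of 9610, 10700 and 9880 CPM in GFP-MatKD and 9330, 6730 and 7520 in Piwi-MatKD_1. It did not pass (log2 fold change -0.36, SE 0.16, adjusted p = 0.201), although its RNA rose, and CR43361 did not either (-0.17, adjusted p = 0.804).

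**Figure D5:**
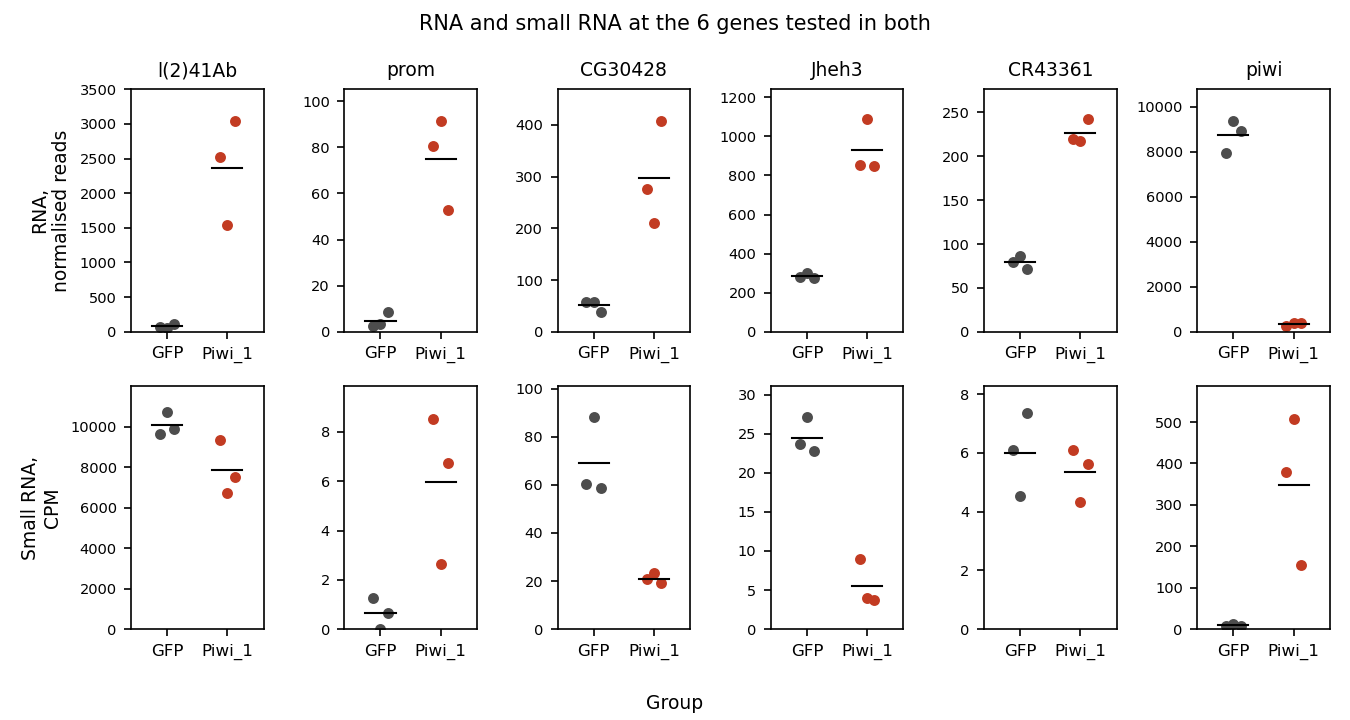
RNA in normalised reads (upper row) and small RNA in CPM (lower row) for the 6 genes tested in both, with 1 point per library of GFP-MatKD and Piwi-MatKD_1 (horizontal) and bars at the means. At CG30428 and Jheh3 the RNA is higher and the small RNA lower in Piwi-MatKD_1, and at piwi the reverse holds.

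The series holds another hairpin line, Piwi-MatKD_2 (maternal genotype THU/MAT-Gal4), compared with the same GFP-MatKD libraries, so both comparisons share their controls. In a limma fit of all 9 RNA libraries 324 features passed in Piwi-MatKD_2 against GFP-MatKD (3.09%) and 238 between the lines (2.27%). Of the 28 features, which were themselves chosen with the Piwi-MatKD_1 libraries, 7 differed between the lines. DM412, higher in Piwi-MatKD_1 at 4729 ± 629 normalised reads, held 788 ± 126 in Piwi-MatKD_2 and 1934 ± 155 in GFP-MatKD. Ctl2 held 4636, 4530 and 3686 normalised reads in Piwi-MatKD_2, around the control values, and foxo 3832, 3348 and 3268. CG10750 had no read in any Piwi-MatKD_2 library, as in the controls. Tie held 83.5 ± 46.8 normalised reads there, Gypsy12_LTR 594 ± 152 and CR45548 13.8 ± 10.5. The other 21 features did not pass the test between the lines, which does not show that the lines are alike. Their log2 fold changes over GFP-MatKD are given with Piwi-MatKD_1 first. Among repeat elements they were 4.51 and 4.13 for HETA, 2.94 and 2.29 for Copia_I-int, 2.55 and 2.32 for Gypsy2_I-int, 2.45 and 2.63 for TART, 1.73 and 0.86 for DIVER_I-int, 1.71 and 1.49 for Chimpo_I-int and 1.39 and 1.2 for BEL_I-int. Among genes that rose they were 5.58 and 5.54 for CG17068, 4.89 and 4.92 for l(2)41Ab, 3.80 and 3.82 for prom, 2.49 and 3.15 for CG30428, 1.69 and 1.83 for Jheh3, 1.61 and 1.47 for Syt4, 1.51 and 1.1 for CR43361 and 1.05 and 0.94 for Tina-1. Among genes that fell they were -4.65 and -5.32 for piwi, -3.39 and -3.83 for jtb, -2.70 and -0.81 for CR31054, -2.40 and -1.12 for Pde6, -1.21 and -0.65 for Tollo and -0.79 and -0.58 for disp. DIVER_I-int, BEL_I-int, CR31054, Pde6, Tollo and disp did not pass in Piwi-MatKD_2 against GFP-MatKD (limma adjusted p 0.0800 to 0.473). Of all 28 features 12 did not pass in that comparison, and of the 9 that fell in Piwi-MatKD_1 2 passed as lower. The log2 difference between the lines was 1.89 at CR31054 (SE 0.46, limma adjusted p = 0.0852) and 1.28 at Pde6 (SE 0.58). Ribosomal RNA genes took up to 10.9% of the reads of a Piwi-MatKD_2 library, against at most 0.535% in the 6 libraries described above, and its part in these values was not tested.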

How the data were processed

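The authors deposited RNA values as a normalised signal, genes and repeat elements together. Dividing a library's values by its lowest nonzero value gave whole numbers for 100% of them (tolerance 0.01), so they are reads scaled by the library's median-ratio size factor. Per the submitters' processing notes the build was BDGP6 and the tools included cutadapt, Bowtie 1.2.2 and featureCounts, with roles not given. Positions and overlaps came from a RefSeq table of Release 6 plus ISO1 MT, the same release; 17671 of 17768 gene IDs were matched. For small RNA the authors deposited expected counts per gene, rounded here before the fit.

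Features that reached 1 in at least 3 of the 6 libraries were tested with limma 3.58.1 in R 4.3.3 (lmFit, then eBayes with trend) after log2(value + 1), which understates changes of low features, with a Benjamini-Hochberg adjusted p under 0.05. Piwi-MatKD_2 RNA columns could be matched to their group alone and entered a fit of 9 libraries with the same features. The 9 small RNA libraries were fitted in edgeR 4.0.16 by quasi-likelihood after filterByExpr, with TMM factors that also scale the CPM. edgeR and DESeq2 1.42.0 on the recovered reads were alternatives. Scripts were tested on simulated data. Members, lists and the rule for naming were chosen with earlier results of these data known. By that rule, piwi, Ctl2 and HETA came first, then all features past the threshold whose groups did not overlap (if 30 or fewer), and for each list members past the threshold or at most 3 others, those of highest control level and largest change in each direction. Features outside it were chosen after their values were seen. They were TAHRE, TART_B1, Gypsy12_I-int, DM412B_LTR, ROO_I-int, R1_DM, R2_DM, Act57B and other muscle markers, the Jheh family and overlapping genes. The labels do not say that replicates came from separate cages, so p-values measure the spread between libraries, which may be technical. Depth was 16.51 to 61.20 M reads; floors cover counting error only.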

Additional observations from a re-analysis of the deposited data

Results flagged for a closer look

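7 of the 28 features that passed in Piwi-MatKD_1 differed from Piwi-MatKD_2 in the test of the difference between the lines (limma, 9 libraries, Benjamini-Hochberg adjusted over all features). As log2 differences of Piwi-MatKD_2 minus Piwi-MatKD_1, the features that rose in Piwi-MatKD_1 gave -4.19 for CG10750 (SE 0.39), -2.59 for DM412 (SE 0.16), -2.10 for Tie (SE 0.39) and -1.08 for Gypsy12_LTR (SE 0.20). Those that fell in Piwi-MatKD_1 gave 3.67 for CR45548 (SE 0.48), 1.51 for Ctl2 (SE 0.11) and 0.98 for foxo (SE 0.11). The fitted value for CG10750 depends on the pseudocount, since all Piwi-MatKD_2 libraries were at 0, and CG10750 and CR45548 met the limit on low values through 1 group alone. Of the 28, DM412 was the 1 that passed against the controls in both lines with opposite signs, 1.28 in the first line and -1.30 in Piwi-MatKD_2 (adjusted p = 0.00287 for the latter). The lines differ in the hairpin genotype of the mothers, and the part of genetic background in these differences was not tested.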

How the results depend on the processing

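Over 532 refits of the 28 features (19 alternatives each) no log2 fold change reversed its sign and 374 passed. The count of 28 features became 2364 with array quality weights, in which Piwi-MatKD_1 replicate 1 had a weight of 78.3 and the other 5 libraries 0.135 to 1.50, and 95 with DESeq2, which called all 28. It was 20 to 29 with the other pseudocounts, filters, scalings, all 9 libraries, no trend, edgeR and voom. Repeat elements past the threshold went from 9 to 81 with array weights, 4 without a trend and 19 with DESeq2, and listed genes from 3 to 82 with array weights. With the replicate number as a block, 3 features and 1 repeat element passed, and 4 genes in small RNA. Same-numbered RNA libraries had deviations correlated at -0.13, -0.25 and -0.32, and small RNA libraries at 0.06, -0.17 and 0.39. These few correlations cannot decide whether the numbers pair the libraries. With 1 library left out, counts ran from 4 to 31 for features, 1 to 10 for repeat elements, 5 to 8 for differences between the lines and 1 to 4 for small RNA. In the 6 Piwi-MatKD libraries alone 4 features differed between the lines. The cause of these shifts was not tested. With 1 library left out the medians of some lists changed sign, among them the antimicrobial list, from -0.38 to 0.11. Depth leaves the folds of CG10750 and CR45548, at 0 reads in 1 group, as bounds.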
